A study of Mus musculus with 6 samples.

Results

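Subclone 31 of a mouse neural progenitor cell (NPC) culture was compared with subclone 30 across all genes. The comparison used the 6 samples whose titles name the subclones, which are all 6 samples of the series: 3 of clone 31 and 3 of clone 30. Each clone gave 1 untreated library and 1 library each from 24 h and 48 h in 500 uM auxin. Auxin time entered the comparison as a block, so clone 31 was set against clone 30 within each time, and attention went to differences kept at all 3 times. Both were subcloned from NPCs made by differentiating mouse embryonic stem cells with a degron on SPEN, and their strain is the hybrid BL/6J x CAST-EiJ. That degron, carried by all 6 samples, is a tag that lets auxin trigger destruction of the SPEN protein, and the treated samples of both clones received the same agent for the same times. The culture medium was N2B27, to which EGF and FGF (10 ng/ml each) were added. Each clone is 1 subclone, and its 3 libraries are that subclone at 3 auxin times. The p-values therefore measure the spread between times within these 2 subclones, not between independent subclones, and no label gives separate cultures of a clone at 1 time. Counts merge the BL/6J and CAST-EiJ alleles.

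Neural progenitors grown with EGF and FGF divide in adherent culture while keeping the capacity to make neurons and glia. Subclones founded by single cells of 1 culture can differ in regional identity, which is carried by Hox, Pax and other homeodomain factors, in the random choice of clustered protocadherin promoters, and in metabolic and cell cycle state. SPEN is a large RNA-binding corepressor that Xist RNA recruits to silence genes of the inactive X chromosome.

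Total counts per library ran from 24603816 (clone 30, untreated) to 43008978 (clone 31, 24 h), so a floor of 3 counts corresponded to between 0.0698 and 0.122 CPM, counts scaled by library size. All CPM values are scaled by TMM factors. Along the first principal component, which held 47.9% of the variance of log2 CPM, each clone 31 library lay above the clone 30 library of its time. The clone 31 library at 48 h stood apart from the other 5 on the second component, at 68.5 against values from -41.3 to 10.8. Markers of neural progenitors were present in both clones: Nes, an intermediate filament gene of progenitors, ran from 649 to 1893 CPM, Sox2, a factor that maintains progenitors, from 191 to 473, and Vim, another intermediate filament, from 1203 to 2011. Of the 20 progenitor markers 19 were tested, and Sox1 was left at no more than 2 counts in any library. The summed level of the 20 ran from 7977 to 9254 CPM in clone 30 and from 6638 to 9302 CPM in clone 31. Pou5f1 and Zfp42, defining genes of pluripotent stem cells, had 0 counts in every library. Spen itself was measured at 92.5, 173 and 200.3 CPM in clone 30 at 0, 24 and 48 h and at 115, 217 and 259 CPM in clone 31. It was higher in clone 31 at each time while the ranges over times overlapped. The log2 difference was 0.34 ± 0.07 (adjusted p = 0.0259), a call lost in 7 of the 18 other settings. Unless marked SD, ± here and below is an approximate standard error. It is the size of the difference divided by the square root of the F value of its edgeR test. Xist differed by 0.31 ± 0.10 and did not pass the test (adjusted p = 0.0953).

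Of 53801 genes in each file, 15492 had enough counts to be tested, and 2503 of them (16.2%) were called different between the clones at an adjusted p under 0.05. Clone 31 was higher for 1174 genes, 7.58% of those tested, and lower for 1329, or 8.58%. The 1174 had a median log2 difference of 0.61 and the 1329 a median of -1.04, while the median over all tested genes was 0.01. All 2503 called genes had the same sign of difference at the 3 times, as did 8230 of all 15492. For 1842 of the 2503 the CPM ranges of the clones did not overlap, and for the other 661 they did. Over all 15492 tested genes the ranges did not overlap in 3591, so many genes without overlap were not called. A difference of at least 2-fold at every time was found upward in clone 31 for 168 genes (1.08% of those tested) and downward for 441 (2.85%). All 168 and 439 of the 441 were also called. Large and lasting differences thus ran mostly downward in clone 31. Across genes, the clone differences at 0 h and 24 h correlated at r = 0.82, those at 24 h and 48 h at 0.72, and those at 0 h and 48 h at 0.59. These are descriptions over 15492 genes, which share libraries and are not independent.

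The number of calls leaned on the 24 h and 48 h libraries. It came to 690 with the 24 h library of clone 30 left out and to 707 with that of clone 31 left out. With the 48 h library left out it came to 4914 (clone 30) and 4834 (clone 31). With the untreated library left out it came to 1755 (clone 30) and 1739 (clone 31). Each number is out of 15492 tested genes. Counts of list members with a library left out, given below, are to be read beside these totals, which rise and fall for genes in general. Without auxin time as a block 566 genes were called. All 2503 genes kept their sign wherever they were tested. With library totals alone as the scaling, 36.1% of 2519 called genes were higher in clone 31, against 46.9% of 2503 with TMM.

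**Figure D1:**
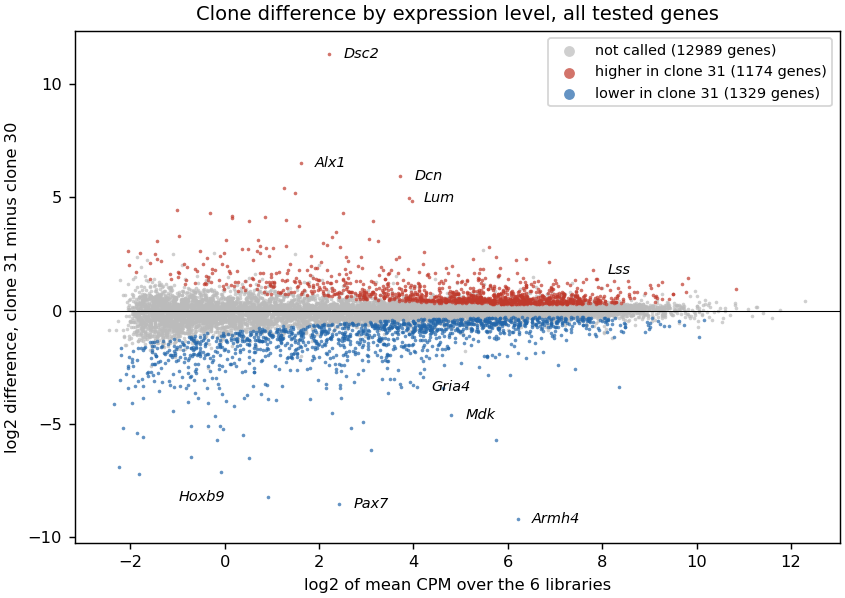
Each point is 1 of 15492 tested genes: the x axis gives the log2 of its mean CPM over the 6 libraries and the y axis the fitted log2 difference between the clones. Red points (1174 genes) were called higher and blue points (1329 genes) lower in clone 31, and the farthest points are Dsc2 and Armh4. The height of Dsc2, with 0 counts in clone 30, depends on the fit's prior count.

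The genes that most separated clone 31 upward included several with almost no reads in clone 30. Dsc2, which encodes the desmosomal cadherin desmocollin 2, had 0 counts in all 3 clone 30 libraries and 932 in clone 31, or 6.71, 6.32 and 14.9 CPM at 0, 24 and 48 h. Against a floor of 3 counts over the 3 clone 30 libraries it was at least 273-fold higher in clone 31. Alx1, a homeodomain factor of craniofacial mesenchyme, was at 0.0803, 0.025 and 0.0973 CPM in clone 30 and 5.56, 6.39 and 6.15 CPM in clone 31, a log2 difference of 6.51 ± 0.33 (adjusted p = 0.000917). Each clone 30 value of Alx1 lay below the floor of its library, so its fold is poorly fixed, and the clones did not overlap.

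A set of secreted and matrix proteins followed. Dcn encodes decorin and Lum lumican, small leucine-rich proteoglycans that bind collagen, and both genes lie on chromosome 10 (Dcn at chr10:97479609-97518143, Lum at chr10:97565128-97572703, GRCm38). Dcn was at 0.602, 0.35 and 0.324 CPM in clone 30 and 28.2, 22.7 and 26.9 CPM in clone 31 at 0, 24 and 48 h. Lum was at 1.16, 0.849 and 0.779 CPM in clone 30 and 31.2, 25.7 and 30.7 CPM in clone 31. The log2 differences were 5.95 ± 0.18 for Dcn and 4.97 ± 0.15 for Lum, each with an adjusted p of 0.00029, and they were nearly level over time. Col3a1, a fibrillar collagen, rose from 1.29, 0.974 and 0.941 CPM to 35.6, 24.7 and 30.5 CPM, and Igfbp7, a secreted binding protein of insulin-like growth factors, from 0.924, 1.1 and 0.649 to 10.8, 7.22 and 8.34 CPM. Cspg4, the NG2 proteoglycan of oligodendrocyte precursors and pericytes, was at 12.3, 13.7 and 10.9 CPM in clone 30 and 71.5, 94 and 89.5 CPM in clone 31 (log2 difference 2.79 ± 0.12, adjusted p = 0.000698). No clone 31 value of these genes reached down to a clone 30 value. In bulk RNA, more cells of a type and more RNA per cell cannot be told apart. Cspg4 is not among the 15 largest rises, taken over called genes whose higher clone averaged 5 CPM or more. The other members of the 15 were Col25a1, Mybpc1, Emcn, Pcdhgb4, Slco1c1, Aldh1a7, Tll1, Isyna1 and Ankrd37, with log2 differences from 2.90 (Ankrd37) to 5.17 (Col25a1). Ankrd37, a hypoxia-responsive gene, had a difference that ran from 1.70 at 0 h to 4.32 at 48 h, and its call was lost in 4 of the 18 other settings, namely those without a 24 h library and without a filter on low counts.

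Downward, Armh4 gave the widest gap of all tested genes. This gene, at chr14:49675952-49783383, was at 151, 147 and 147 CPM in clone 30 and 0.349, 0.213 and 0.151 CPM in clone 31, a log2 difference of -9.21 ± 0.18 (adjusted p = 0.00011). Its clone 30 values hardly moved with auxin (148 ± 2.16 CPM, SD, n = 3). Pax7, a paired homeodomain factor of the dorsal neural tube at chr4:139737062-139833528, had 1069 counts in clone 30 and 3 in clone 31, a ratio of 405 with a 95% counting interval from 138 to 1967. In CPM it ran 10.6, 15.2 and 6.33 in clone 30 at 0, 24 and 48 h and 0.0249, 0.0473 and 0 in clone 31. Clone 31 thus held Pax7 at or below the floor of every library.

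Among the other falls, Mdk, which encodes the growth factor midkine, was at 55.1, 49.2 and 57 CPM in clone 30 and 2.0, 2.37 and 2.19 CPM in clone 31 (-4.61 ± 0.13, adjusted p = 0.00029). Rgs8, a regulator of G protein signalling, was at 138, 110.0 and 69.4 CPM in clone 30 and 4.47, 1.51 and 0.679 CPM in clone 31 (-5.72 ± 0.32, adjusted p = 0.00107). Adm, the peptide adrenomedullin, and Ramp1, a subunit of receptors of that peptide family, were both lower (log2 differences -4.92 and -4.51). Gria4, an AMPA receptor subunit, showed the same difference at each time: -3.33, -3.34 and -3.34 on the log2 scale. Mmp14, a membrane-bound matrix protease, differed by -6.13, Cul9, a cullin of ubiquitin ligases, by -5.16, and Kcnma1, a calcium-activated potassium channel, by -3.63. The rest of the 15 largest falls were Fam198b, Shisa6, Casp12, Pitpnm1 and Ptprn, between -3.90 (Fam198b) and -3.40 (Ptprn). In the 15 falls no clone 30 library overlapped a clone 31 library, as in 1842 of all 2503 called genes. Ptprn was the only one of them whose gap narrowed at 48 h by a called amount, from -4.15 at 0 h to -2.21 at 48 h, and its call was lost in 5 of the 18 other settings.

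**Figure D2:**
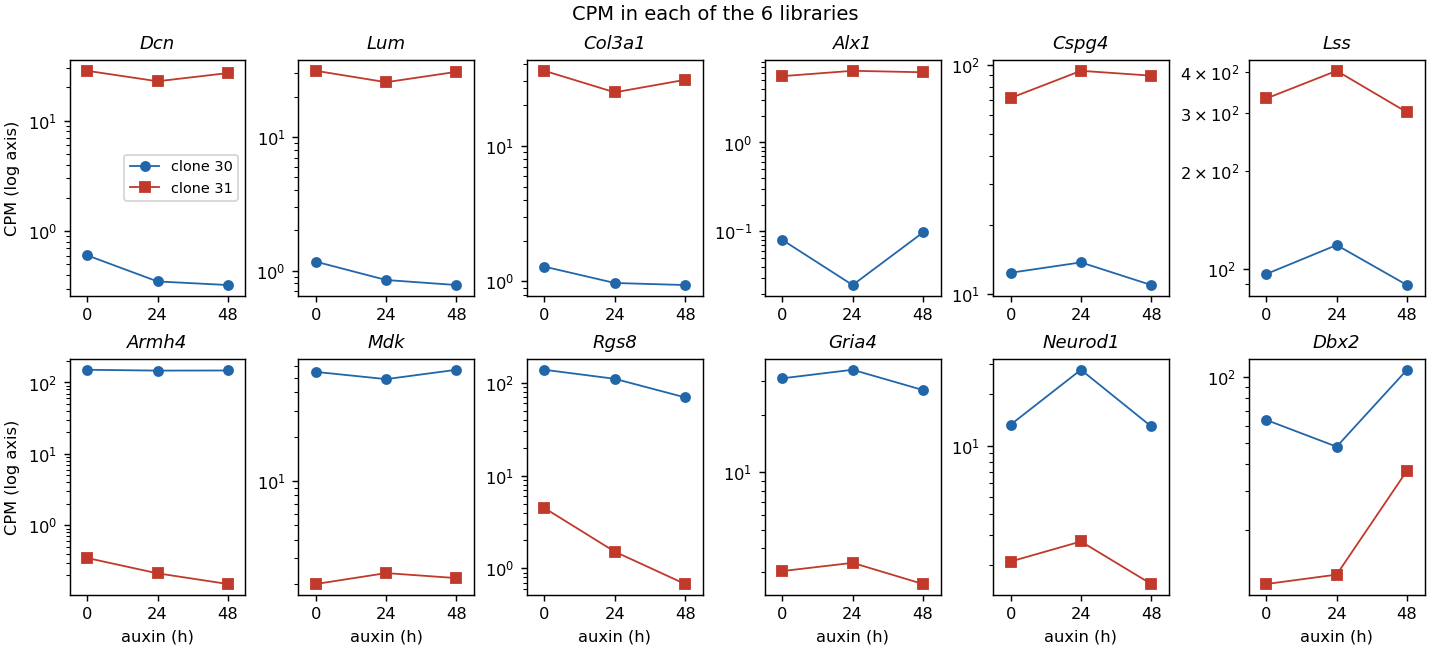
CPM (log axis, a separate scale per gene) of 12 genes against auxin time in h, with 1 library per point, clone 30 in blue circles and clone 31 in red squares. The 6 genes of the upper row were higher and the 6 of the lower row lower in clone 31 in every pair of libraries, and Armh4 lay at 147 to 151 CPM in clone 30 and 0.151 to 0.349 CPM in clone 31.

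The most uniform group was cholesterol synthesis. The pathway makes sterols from acetyl-CoA through mevalonate and squalene, and its genes are driven together by the factor SREBP2 when cell sterol runs low. All 18 listed genes were called higher in clone 31, beside 7.58% of all tested genes. Their median log2 difference was 1.12 beside 0.01 over all tested genes. The clones did not overlap in any of the 18, beside no overlap in 1842 of all 2503 called and 3591 of all 15492 tested genes. The list was known from earlier results of these data to move, so its count is a description. The medians were 1.01 at 0 h, 1.03 at 24 h and 1.30 at 48 h, and the summed level in clone 31 was 1.84, 1.96 and 2.38 times that of clone 30. Without the 24 h library of either clone 16 of the 18 were called, without both 24 h libraries 14, and without the block 15.

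Lss, lanosterol synthase, which closes the sterol ring, differed most. It was at 96.6, 118 and 89.3 CPM in clone 30 and 333, 405 and 302 CPM in clone 31 at 0, 24 and 48 h, with a log2 difference of 1.77 ± 0.07 (adjusted p = 0.000501). Mvd, mevalonate diphosphate decarboxylase, was at 73.9, 83.6 and 58.2 CPM in clone 30 and 177, 224 and 153 CPM in clone 31 (1.36 ± 0.07). Insig1, which retains the SREBP complex in the endoplasmic reticulum, rose by 1.0 ± 0.11. Srebf2, the gene of SREBP2 itself, differed least, by 0.63 ± 0.11 (adjusted p = 0.0164). Of the 18 genes, 9 were at least 2-fold higher at all 3 times.

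Promoter windows from RefSeq (GRCm38.p6, from 250 bases before to 50 after the start site) were at hand for 12 of the 18 genes. The letters TCACNCCAC, a form of the sterol regulatory element, occurred on either strand in 1 of the 12, Hmgcs1, and in 1.44% of 27025 genes. The letters ATTGG, the inverted CCAAT box bound by NF-Y, occurred in 12 of the 12 and in 41.1% of all genes. Both windows below lie on the plus strand, and the capitals mark the element in Hmgcs1, the gene of HMG-CoA synthase (chr13:119690101-119690400), and the single ATTGG in Lss (chr10:76531355-76531654). They are shown as the 2 kinds of match found in the group.
Hmgcs1: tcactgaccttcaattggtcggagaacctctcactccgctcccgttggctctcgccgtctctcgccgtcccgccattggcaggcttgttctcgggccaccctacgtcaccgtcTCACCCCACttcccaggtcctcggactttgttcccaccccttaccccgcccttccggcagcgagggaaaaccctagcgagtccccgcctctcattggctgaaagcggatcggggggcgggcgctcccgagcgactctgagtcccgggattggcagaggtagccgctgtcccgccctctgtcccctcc
Lss: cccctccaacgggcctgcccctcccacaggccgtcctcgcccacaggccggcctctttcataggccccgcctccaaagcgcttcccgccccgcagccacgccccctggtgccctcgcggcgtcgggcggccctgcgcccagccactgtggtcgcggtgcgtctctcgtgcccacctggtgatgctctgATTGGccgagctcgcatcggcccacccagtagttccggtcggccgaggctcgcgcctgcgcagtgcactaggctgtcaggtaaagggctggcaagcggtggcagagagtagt
The element in Hmgcs1 began 137 bases and the box in Lss 62 bases before the start site. A match is a description of these letters and not a measured binding site.

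Genes of cell division were also higher in clone 31, by small amounts, while targets of p53 were lower. Among 14 mitosis genes 12 were called higher (median 0.41), and among 14 S phase genes 8 (median 0.36). Of 19 p53 targets 13 were called lower (median -0.67). The called shares were 85.7%, 57.1% and 68.4%, beside 16.2% of all tested genes. These 3 medians had the same sign at 0, 24 and 48 h. The calls leaned on the 24 h libraries: without the 24 h library of either clone edgeR called no mitosis or S phase gene (9 and at least 4 had an unadjusted p under 0.05), and 6 p53 targets. With all libraries DESeq2 called 11 mitosis, 9 S phase (8 higher and 1 lower) and 14 p53 genes and limma voom 12, 8 and 13. Without the untreated library of either clone the counts were 7, 1 and 12, and without the 48 h library of either clone 12, 13 and 16. In the latter setting 1 more S phase gene was called lower. Under total-count or upper-quartile scaling 8 mitosis and 6 S phase genes were called, and without the block edgeR called 0 mitosis and 0 S phase genes (9 and 0 at an unadjusted p under 0.05) and 2 p53 targets.

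Aurkb, a kinase of chromosome segregation, was at 94.2, 84 and 71.1 CPM in clone 30 and 128, 137 and 118 CPM in clone 31 (0.63 ± 0.09, adjusted p = 0.00928). Kif11, the motor that separates spindle poles, was at 184, 162 and 155 CPM in clone 30 and 249, 231 and 220.2 CPM in clone 31 (0.49 ± 0.07). Aurka, a centrosomal kinase, and Bub1, a kinase of the spindle checkpoint, differed by 0.47 ± 0.07 and 0.44 ± 0.07. Clone 31 was higher at every time in these 4 genes, by less than 2-fold in each. In S phase, Slbp, which binds histone mRNAs, was at 76.3, 68.7 and 48.1 CPM in clone 30 and 98.2, 93 and 65.4 CPM in clone 31, and Cdc6, which licenses replication origins, at 33, 36.1 and 15.5 CPM in clone 30 and 54.1, 55.7 and 19.1 CPM in clone 31. For the 8 called S phase genes the ranges of the clones overlapped, as they did for 661 of all 2503 called genes. Levels of the 8 in both clones were lowest at 48 h.

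Among regulators of G1, 7 of 17 were higher and 3 lower, or 58.8% called beside 16.2% of all tested genes. The 3 lower ones were Ccnd2, a D-type cyclin (-1.14 ± 0.21), Cdkn2a, the locus of the inhibitors p16 and p19Arf (-0.77 ± 0.10), and Cdkn1a, the inhibitor p21 and a p53 target (-0.57 ± 0.09). Cdkn2a was at 140.1, 136 and 123 CPM in clone 30 and 73.1, 75.4 and 85.9 CPM in clone 31, with no overlap. Cdkn1b, the inhibitor p27, went the other way, with 110.2, 98.1 and 138 CPM in clone 30 and 155, 139 and 221 CPM in clone 31 (0.56 ± 0.08, adjusted p = 0.00917), and the activator E2f2 rose by 0.78 ± 0.10. Without the 24 h library of either clone 1 lower G1 gene was called and 0 higher (11 in all at an unadjusted p under 0.05), and without either 48 h library 7 were higher and 6 lower.

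Several p53 targets that fell belong to cell death. Pmaip1, which encodes the BH3-only protein Noxa, was at 32.7, 41 and 23.3 CPM in clone 30 and 15.1, 16.6 and 11.4 CPM in clone 31 (-1.15 ± 0.10, adjusted p = 0.00277). Fas, a death receptor, was at 12, 20.5 and 15.1 CPM in clone 30 and 4.07, 6.23 and 6.27 CPM in clone 31 (-1.52 ± 0.13), and Eda2r, another receptor of that family, at 404, 545 and 367 CPM in clone 30 and 222, 260.2 and 222 CPM in clone 31 (-0.89 ± 0.09). The remaining 6 targets did not pass, among them Btg2, which was at 311, 295 and 380.0 CPM in clone 30 and 100.4, 129.9 and 369.5 CPM in clone 31 and so nearly equal at 48 h. Trp53 mRNA, named after its values were seen, did not pass either (-0.12 ± 0.14, adjusted p = 0.62).

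RefSeq windows were at hand for 13 of the 14 mitosis genes. The letters TTTGAA, the core of the cell cycle genes homology region bound by the DREAM complex, occurred on either strand in 10 of the 13 and in 20.2% of 27025 genes, and in 0 of the 12 cholesterol genes. ATTGG occurred in 13 of the 13, so 10 genes held both; the strings can overlap at their ends. Kif11 (chr19:37376132-37376431, plus strand) and Aurka (chr2:172370521-172370820, minus strand) are printed as called members that hold both, with TTTGAA or its reverse complement in capitals.
Kif11: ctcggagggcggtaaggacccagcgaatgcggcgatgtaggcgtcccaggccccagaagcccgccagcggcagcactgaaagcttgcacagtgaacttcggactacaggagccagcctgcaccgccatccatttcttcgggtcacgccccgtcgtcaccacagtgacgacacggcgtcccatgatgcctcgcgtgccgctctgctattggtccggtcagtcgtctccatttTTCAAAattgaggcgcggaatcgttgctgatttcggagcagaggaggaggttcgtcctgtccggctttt
Aurka: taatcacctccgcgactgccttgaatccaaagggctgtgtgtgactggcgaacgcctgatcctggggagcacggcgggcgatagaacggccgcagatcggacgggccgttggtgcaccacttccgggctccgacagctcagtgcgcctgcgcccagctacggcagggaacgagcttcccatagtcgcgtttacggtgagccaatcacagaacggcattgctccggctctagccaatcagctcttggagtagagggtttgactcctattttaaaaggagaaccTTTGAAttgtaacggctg
The match began 19 bases before the start site in Kif11 and at position 33 after it in Aurka.

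Of the matrix and mesenchymal markers that were called, all but 1 were higher in clone 31. Of 21 tested, 10 were called higher and 1 lower (52.4% called, beside 16.2% of all tested genes), with a median of 0.77. The ranges of the clones did not overlap in any of the 11, beside no overlap in 1842 of all 2503 called genes. Beside Col3a1, Dcn and Lum, Col6a2, a chain of type VI collagen, was at 12.9, 14 and 12.2 CPM in clone 30 and 77.3, 65.8 and 47.7 CPM in clone 31 (2.26 ± 0.13, adjusted p = 0.00133), and Col6a1 rose by 1.14 ± 0.09. Fn1, fibronectin, was at 157, 189 and 155 CPM in clone 30 and 320.2, 338 and 341 CPM in clone 31 (1.0 ± 0.09), and Prrx1, a homeodomain factor of mesenchyme, at 10.9, 8.72 and 12.2 CPM in clone 30 and 33.3, 29.3 and 60.1 CPM in clone 31 (1.89 ± 0.15). Acta2, smooth muscle actin, was lower (-2.01 ± 0.33) at under 1 CPM in every library. The mesenchymal regulators Twist1 (8.31, 13.1 and 6.94 CPM in clone 30 and 13, 12.8 and 7.4 CPM in clone 31) and Snai2 (under 1 CPM in each library) did not pass. The summed level of the 23 listed genes overlapped between the clones, at 2016 to 2173 CPM in clone 30 and 1749 to 2403 CPM in clone 31, of which Sparc, not called, gave the most. None of the 23 was at 0 in every library. The part of other cells in these differences was not tested. Without the 24 h library of clone 30 or of clone 31, 9 and 8 of the markers were called higher.

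**Figure D3:**
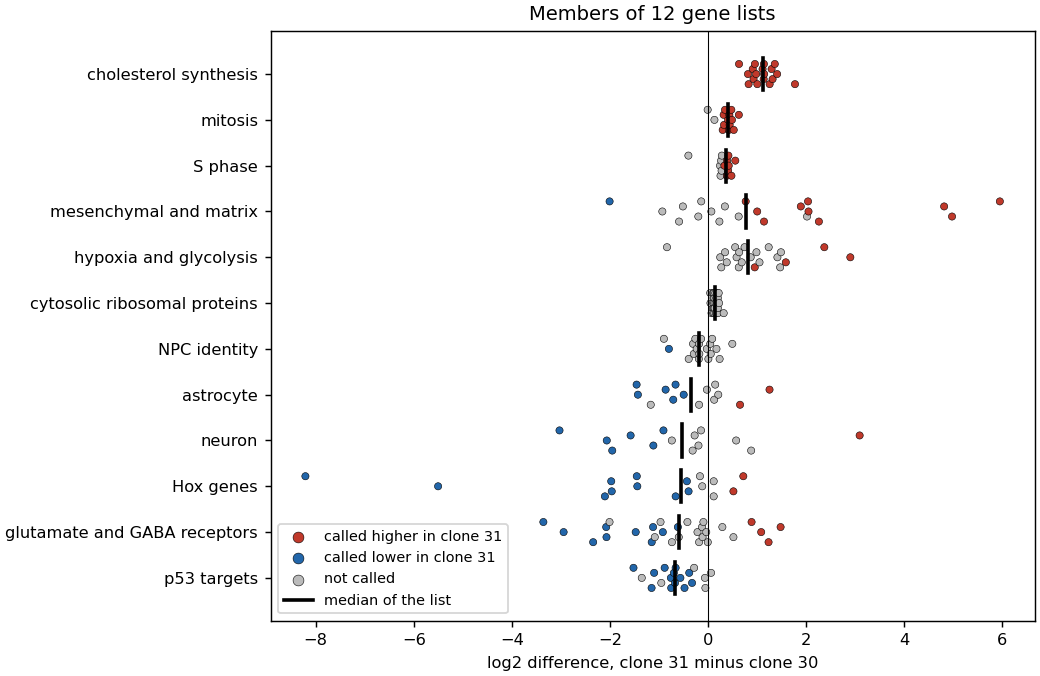
Each point is 1 tested gene of 12 lists, placed by its log2 difference between the clones, in red where called higher and blue where called lower in clone 31, and grey where not called. Black bars are list medians, which run from 1.12 for cholesterol synthesis to -0.67 for p53 targets.

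Hox genes, which encode position along the body axis, were mostly lower in clone 31. Of 39 genes 16 were tested, 13 had 0 counts in every library, and no untested one exceeded 9 counts in a library. Clone 31 was lower for 10 and higher for 2 of the 16 (75% called, beside 16.2% of all tested genes), with a median of -0.55. Of these 12 the ranges overlapped in 2, beside 661 of all 2503 called genes. The 10 were 6 of Hoxb, 3 of Hoxa and Hoxd8 (2.49, 2.9 and 2.37 CPM in clone 30 and 0, 0.118 and 0.0377 CPM in clone 31). In the Hoxb cluster on chromosome 11, Hoxb2 and Hoxb4 did not pass (-0.12 and -0.17), Hoxb3 was lower by a small amount (-0.43), and Hoxb5 to Hoxb9 were all lower. Hoxb6 was at 28.8, 22.3 and 36.7 CPM in clone 30 and 6.79, 5.61 and 7.74 CPM in clone 31 (-2.10 ± 0.11, adjusted p = 0.000834). Hoxb8 was at 45.9, 39.7 and 62.6 CPM in clone 30 and 15.7, 15.1 and 23.9 CPM in clone 31 (-1.44 ± 0.08). Hoxb9 had 353 counts in clone 30 and 1 in clone 31, a ratio of 401 with a 95% counting interval from 71.5 to 15889. Hoxb9 to Hoxb5 (chr11:96271457-96306121) formed an unbroken run of 5 tested neighbours lower in clone 31, and transcripts of neighbouring Hox genes can overlap.

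The Hoxa cluster showed both directions. Hoxa4 was higher in clone 31, at 6.43, 5.34 and 5.19 CPM in clone 30 and 8.51, 8.12 and 7.55 CPM in clone 31 (0.52 ± 0.12, adjusted p = 0.0441). Hoxa5, Hoxa6 and Hoxa7 were lower (log2 differences -0.40, -1.96 and -1.45). Hoxa2 and Hoxa3 did not pass. Every tested Hoxa and Hoxb member from Hoxa5 and Hoxb5 onward was thus lower in clone 31. Without the untreated or the 24 h library of either clone 7 Hox genes were called lower and Hoxa4 was not called, and without the 48 h library of either clone 10 were lower.

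**Figure D4:**
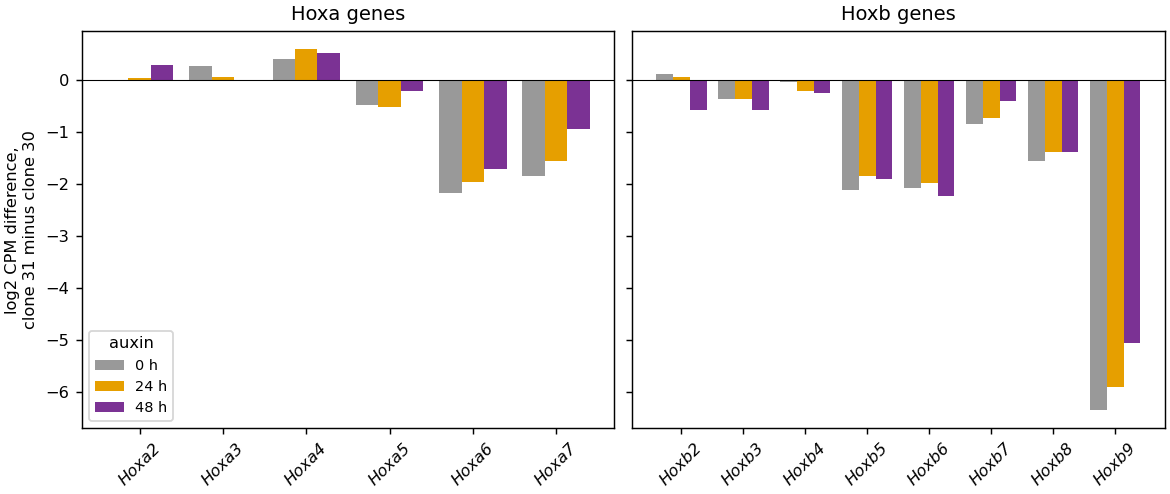
Bars give the log2 CPM difference, clone 31 minus clone 30, of tested Hoxa and Hoxb genes at 0, 24 and 48 h of auxin, with a prior count of 2 and 1 library per clone and time. Bars of Hoxb5, Hoxb6, Hoxb8 and Hoxb9 lie below -1 at each time; those of Hoxb9 rest on 1 count in clone 31 and depend on the prior count.

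Other patterning factors also differed. Gsx1, a homeodomain factor of interneuron progenitors, was at 1.57, 1.8 and 1.07 CPM in clone 30 and 0.0499, 0.189 and 0 CPM in clone 31 (-4.08 ± 0.51, adjusted p = 0.00713). Dbx2, which marks progenitors near the middle of the dorsoventral axis, was at 63.7, 48.1 and 108 CPM in clone 30 and 11.3, 12.5 and 37.3 CPM in clone 31 (-1.98 ± 0.19). Pax6, a progenitor factor on that axis and elsewhere, was at 29.6, 21.7 and 36.8 CPM in clone 30 and 15.2, 12.8 and 23 CPM in clone 31 (-0.80 ± 0.10). Of 19 progenitor markers it was the 1 called (5.26%, below the 16.2% of all tested genes), and DESeq2 called 2. Without the 48 h library of clone 30 or of clone 31, 6 and 7 progenitor markers were called lower and 1 higher. Those settings called 4914 and 4834 of all 15492 genes. In the opposite direction, Nkx6-1, a ventral factor, rose by 0.64 ± 0.12, and the orphan receptor Nr2f1 by 0.64 ± 0.08. In all, 6 of 12 dorsoventral, 4 of 9 forebrain and 1 of 9 midbrain and hindbrain factors were called, or 50%, 44.4% and 11.1% beside 16.2% of all tested genes. With either 24 h library left out, edgeR called 3 dorsoventral, 3 forebrain and 0 midbrain and hindbrain factors (3 of the last at an unadjusted p under 0.05), and with either 48 h library left out 6, 5 and 3.

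More neuronal markers were lower than higher in clone 31. Of 14 tested markers 6 were lower and 1 higher (50% called, beside 16.2% of all tested genes), with a median of -0.53. Neurod1, a proneural helix-loop-helix factor, was at 13.3, 27.8 and 12.9 CPM in clone 30 and 2.1, 2.75 and 1.55 CPM in clone 31 (-3.03 ± 0.17, adjusted p = 0.00109). Gap43, of growing axons, was at 127, 146 and 97.6 CPM in clone 30 and 50.7, 64.8 and 54 CPM in clone 31 (-1.12 ± 0.11), and Mapt, the microtubule protein tau, at 14.9, 12 and 19.9 CPM in clone 30 and 2.54, 2.25 and 8.0 CPM in clone 31 (-2.07 ± 0.27). Syt1, a calcium sensor of synaptic vesicles, was the marker called higher, at 0.643, 0.0999 and 0.26 CPM in clone 30 and 6.09, 2.06 and 0.679 CPM in clone 31 (3.09 ± 0.46, adjusted p = 0.0119). Snap25 (0.88 ± 0.22, adjusted p = 0.0515) and Dcx (0.57 ± 0.17, adjusted p = 0.073) were also higher at each time but did not pass. Of the 14 fitted differences 3 were positive and 11 negative. The 20 markers summed to between 1209 and 1334 CPM in clone 30 and 828 and 1117 CPM in clone 31, ranges that do not overlap. Whether fewer neurons in clone 31 took part in this was not tested. Without the untreated or the 24 h library of either clone 4 were called lower, and without the 48 h library of either clone 9.

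Receptors of glutamate and GABA moved in both directions, with 10 of 29 lower, 4 higher and a median of -0.60. Their called share was 48.3%, beside 16.2% of all tested genes. Beside Gria4, Gabrg1, a GABA-A subunit, was at 144, 123 and 154 CPM in clone 30 and 68.4, 60.6 and 96.4 CPM in clone 31 (-0.92 ± 0.10). Grin2b, an NMDA subunit, fell by 2.34 on the log2 scale at about 2 CPM or less. Grm3, a metabotropic glutamate receptor, was at 54.8, 53.3 and 63.7 CPM in clone 30 and 108, 101 and 108 CPM in clone 31 (0.89 ± 0.08, adjusted p = 0.0029), and Gabra2 at 11.8, 9.64 and 9.93 CPM in clone 30 and 35.4, 32.3 and 21.2 CPM in clone 31 (1.48 ± 0.15). The GABA-A genes Gabrg3 and Gabra5 lie close together on chromosome 7 and were both lower (log2 differences -2.95 and -1.48). Without the 24 h library of either clone 6 receptors were called lower and 2 higher.

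Astrocyte markers were split. Of 14 tested, 6 were lower and 2 higher (57.1% called, beside 16.2% of all tested genes). The median turned from -0.52 at 0 h and -0.36 at 24 h to 0.20 at 48 h. Glul, glutamine synthetase, was at 316, 263 and 363 CPM in clone 30 and 161, 153 and 202 CPM in clone 31 (-0.87 ± 0.08, adjusted p = 0.00319), and Gja1, connexin 43, fell by 0.50 on the log2 scale. Sparcl1, a secreted matrix protein of astrocytes, was at 356, 268 and 432 CPM in clone 30 and 690.3, 595 and 1358 CPM in clone 31 (1.25 ± 0.15), and Id3, an inhibitor of helix-loop-helix factors, at 145, 124 and 131 CPM in clone 30 and 206, 211 and 212 CPM in clone 31 (0.65 ± 0.08). Gfap, the astrocyte filament gene, was lower (-1.46 ± 0.23) at under 3 CPM in every library. The 15 markers summed to 2746 to 4052 CPM in clone 30 and 2663 to 5272 CPM in clone 31, and 1 marker was at 0 throughout. With either 24 h library left out, 1 marker was called lower and 1 higher, and with either 48 h library left out 9 lower and 2 higher.

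Axon guidance genes gave 12 calls upward and 4 downward among 41, with a median of 0.00. Their called share was 39.0%, beside 16.2% of all tested genes. Robo2, a Slit receptor, was at 132, 104 and 206 CPM in clone 30 and 41.1, 22.9 and 63 CPM in clone 31 (-1.86 ± 0.12, adjusted p = 0.00155). Unc5c, a netrin receptor, was at 1.53, 1.07 and 1.33 CPM in clone 30 and 14, 9.3 and 5.21 CPM in clone 31 (2.78 ± 0.27), and the secreted semaphorin Sema3d at 2.25, 2.1 and 1.52 CPM in clone 30 and 9.28, 6.49 and 5.21 CPM in clone 31 (1.81 ± 0.16). Sema3a and Sema3f, of the same class, rose by 0.70 and 1.22, as did their coreceptors Nrp1 (0.79) and Nrp2 (1.67), whereas Sema3c and Sema3e fell by 1.06 and 1.61 on the log2 scale. Grm3, Sema3d and Sema3a are part of a run of 4 tested neighbours on chromosome 5 called higher. If the 24 h library of either clone was dropped, 7 genes were called higher and 1 lower, while with either 48 h library left out there were 12 of each. Under total-count scaling 11 were higher and 8 lower, and under upper-quartile scaling 11 and 6.

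In the Wnt pathway 8 of 35 genes were higher and 4 lower (median 0.19), or 34.3% called beside 16.2% of all tested genes. The receptor Fzd9 was at 20.9, 14.2 and 22.5 CPM in clone 30 and 56.8, 53.5 and 66.1 CPM in clone 31 (1.64 ± 0.12, adjusted p = 0.00176), Fzd5 rose by 1.17 ± 0.13, and the secreted modulator Dkk3 by 2.29 ± 0.20. The ligands Wnt5a, Wnt7a and Wnt7b were lower (log2 differences -0.83, -0.95 and -0.52), and Wnt5b was higher (0.94). In the BMP and TGF-beta pathway 5 of 30 were higher and 4 lower, or 30% called. Id4, an inhibitor of helix-loop-helix factors, was at 12.4, 6.82 and 50.5 CPM in clone 30 and 0.549, 0.45 and 9.17 CPM in clone 31 (-3.35 ± 0.39), so the clone 31 value at 48 h lay within the clone 30 range. Leaving out the 24 h library of either clone, edgeR called 3 Wnt genes higher and 0 lower (16 of either sign at an unadjusted p under 0.05), and in the BMP pathway 0 higher and 1 lower (10 of either sign). With either 48 h library left out, 12 Wnt genes were higher and 7 lower, and 7 BMP pathway genes each way.

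Among 21 Notch pathway genes 3 (14.3%, near the 16.2% of all tested genes) were called, which were lower: the ligand-like Dner (-2.0 ± 0.20), the ligase Dtx4 (-0.59 ± 0.09) and the glycosyltransferase Mfng (-1.39 ± 0.22). Of 24 EGF and FGF ligands and receptors 2 were higher and 5 lower, or 29.2% called. Erbb2 was at 41.9, 37.9 and 46.6 CPM in clone 30 and 68.9, 74.1 and 64.5 CPM in clone 31 (0.72 ± 0.11), its relative Erbb4 fell by 1.05 on the log2 scale, and Fgfr4 rose by 2.54 ± 0.24 at under 4 CPM. Egfr, the receptor of the EGF in the medium, did not pass (0.01 ± 0.10). In retinoic acid signalling 3 of 12 tested genes were called higher and 2 lower (41.7% called). Their median was -0.11, and 8 of the 12 differences were negative. The receptors Rara and Rarg and the synthesizing enzyme Aldh1a1 were higher, by 1.06, 0.58 and 1.64, and the degrading enzyme Cyp26b1 was lower (-2.34) at about 1 CPM or less. With either 24 h library left out, 1 Notch gene, 2 lower and 1 higher growth factor genes were called. With either 48 h library left out, 9 Notch genes were called lower and 2 higher, 8 growth factor genes lower and 2 higher, and 3 retinoic acid genes higher with 4 (clone 30) or 6 (clone 31) lower. Of all 15492 tested genes, 4914 (clone 30) or 4834 (clone 31) were called without the 48 h library. Without the 24 h library, 690 or 707 were. DESeq2 called 6 Notch genes lower and 1 higher.

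Clustered protocadherins are cell surface identity proteins, each variable exon having its own promoter that a cell switches on or leaves silent. Of 8 tested alpha genes 3 were lower, of 21 beta genes 9 were lower and 1 higher, and of 19 gamma genes 6 were lower and 1 higher. The called shares were 37.5%, 47.6% and 36.8%, beside 16.2% of all tested genes. Pcdhgb4 was the outlying member, at 0.201, 0.50 and 0.487 CPM in clone 30 and 5.51, 4.71 and 6.38 CPM in clone 31 (3.74 ± 0.29, adjusted p = 0.00209). Pcdha11 was at 2.45, 3.7 and 4.48 CPM in clone 30 and 0.225, 0.142 and 0.34 CPM in clone 31 (-3.92 ± 0.29), and Pcdhga3 at 36.3, 35.4 and 45.3 CPM in clone 30 and 12.6, 9.35 and 14.5 CPM in clone 31 (-1.70 ± 0.11). Alpha and gamma genes share constant exons within their cluster and beta genes resemble each other, so reads may be split among members and single values are uncertain. If the 24 h library of either clone was dropped, 2 genes of each cluster were called lower, and with either 48 h library left out 5 alpha, 9 beta and 6 gamma genes. Without either untreated library 3 gamma genes were lower.

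Along the chromosomes no broad shift was found. The median log2 difference per chromosome ran from -0.04 on chromosome 13 to 0.03 on chromosome 7, and was 0.00 on the X chromosome, where 100 of 537 genes (18.6%) were called, 50 in each direction. Over 1458 windows of 50 neighbouring tested genes, medians ran from -0.35 to 0.21, none beyond 0.5 and 5 beyond 0.2. Of 517 adjacent pairs with both genes called, 349 (67.5%) shared direction, and 10 runs of at least 4 genes were found. With 46.9% of all called genes higher, many pairs would share direction without any link, and an excess was not tested. The runs include neighbours of the Hoxb, Pcdhb and Pcdhga families. Among 35 imprinted genes, expressed from 1 parental allele, 3 were higher and 6 lower, 25.7% beside 16.2% of all tested genes. The neighbouring noncoding RNAs Meg3 (1.97, 1.6 and 2.37 CPM in clone 30 and 0.274, 0.213 and 0.679 CPM in clone 31) and Rian were lower (log2 differences -2.45 and -1.98). Igf2r and Airn, its antisense RNA, which strand-specific counting kept apart per the file headers, were both higher, by 1.24 and 0.97. Without the 24 h library of clone 30 or of clone 31, 1 and 2 imprinted genes were called higher and 2 lower, while without either 48 h library 5 were higher and 11 lower. Of 15 genes that escape X inactivation 1 (6.67%) was called, below the 16.2% of all tested genes. This was Bgn, the proteoglycan biglycan, at 0.161, 0.125 and 0.227 CPM in clone 30 and 3.29, 2.18 and 2.6 CPM in clone 31 (3.94 ± 0.27). With either 48 h library left out 4 of the 15 were higher and 2 lower, beside 4914 (clone 30) or 4834 (clone 31) of all 15492 genes called. Of 6 genes of the X-inactivation centre edgeR called 0, with 1 under an unadjusted p of 0.05, while by DESeq2 1 passed and by limma voom 0.

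Not every difference between the clones was the same at 48 h. A term for the clone difference at 48 h against its mean at 0 and 24 h was called for 771 of 15492 genes (4.98%), 399 positive and 372 negative. Of the 771, 105 were also called between the clones over all times, and in 428 the sign at 48 h was opposite to that at 0 and 24 h. The fit has 1 residual degree of freedom and rests on 1 library per clone at 48 h, of which that of clone 31 stood apart. DESeq2 called 283 genes for the same term.

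Genes of hypoxia and glycolysis, many of them targets of HIF-1, held many of these. Of 22 tested, 14 were called for the 48 h term and all 14 were positive, while 4 (18.2%, near the 16.2% of all genes) were called between the clones over all times. The list median went from 0.05 at 0 h to 0.57 at 24 h and 1.71 at 48 h. Hk2, a hexokinase, was at 30.2, 23.7 and 5.71 CPM in clone 30 and 96.4, 89.6 and 77 CPM in clone 31, and its difference grew from 1.67 to 3.74 (1.95 ± 0.17 for the 48 h term, adjusted p = 0.00442). Ldha, lactate dehydrogenase, was at 979, 696 and 470.0 CPM in clone 30 and 1079, 1032 and 1787 CPM in clone 31, nearly equal untreated and 1.93 apart on the log2 scale at 48 h. Slc2a1, the glucose transporter GLUT1, was higher in clone 31 at all times (0.52, 0.82 and 1.52). In these 3 genes each clone 30 library was lower than that of the time before it, while clone 31 was higher at 48 h than at 24 h in Ldha and Slc2a1 but not in Hk2. Leaving out the 24 h library of either clone, edgeR called 0 of the 22 between the clones (5 at an unadjusted p under 0.05), and without the untreated library of either clone 7 were.

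The feedback genes of ERK signalling ran the other way. Their median was 0.41 at 0 h, -0.06 at 24 h and -0.94 at 48 h, and 5 of 14 were called for the 48 h term, all negative. Between the clones 2 of 14 (14.3%, near the 16.2% of all tested genes) were called higher and 0 lower over all times. By edgeR 4 of 14 had an unadjusted p under 0.05, and DESeq2 called 2 lower. Without either untreated library 1 was higher and 4 lower, and without either 48 h library 4 were higher and 2 lower. With either 24 h library left out edgeR called 0 and 0 (4 at an unadjusted p under 0.05). Dusp6, the phosphatase of ERK, was at 409.7, 665 and 210.5 CPM in clone 30 and 549.9, 598 and 39.6 CPM in clone 31 (-2.55 ± 0.25 for the 48 h term, adjusted p = 0.00996), and the inhibitor Spry1 at 88.3, 165 and 58.6 CPM in clone 30 and 138, 195 and 17.9 CPM in clone 31. In each clone the 48 h library was the lowest of the 3 for both genes. For the 48 h term edgeR, DESeq2 and limma voom each called 0 of 18 cholesterol, 0 of 14 mitosis and 0 of 16 Hox genes, of which 7, 0 and 2 had an unadjusted edgeR p under 0.05.

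**Figure D5:**
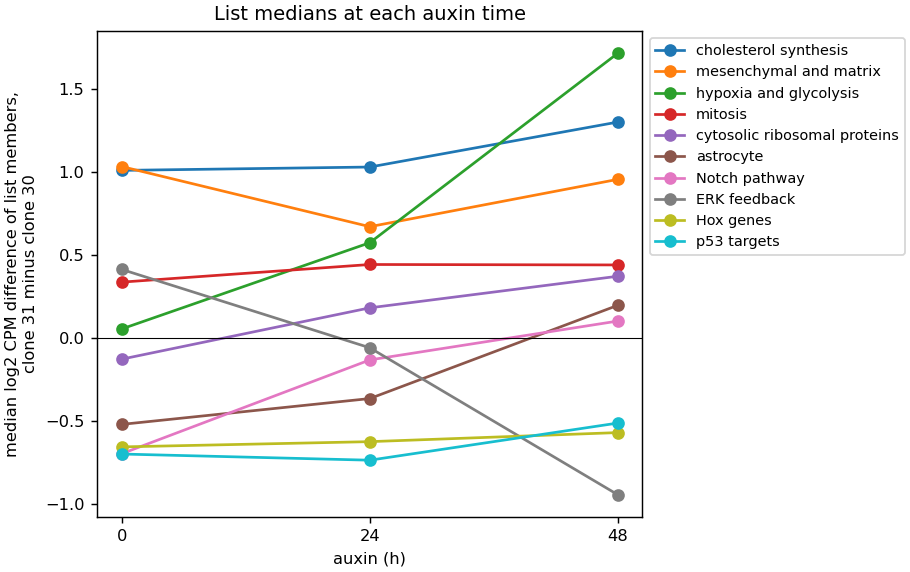
Lines join the median log2 CPM difference (clone 31 minus clone 30) of 10 gene lists at 0, 24 and 48 h of auxin, from 1 library per clone and time. Cholesterol synthesis stays between 1.01 and 1.30 and p53 targets between -0.74 and -0.51, while hypoxia and glycolysis rises from 0.05 to 1.71 and ERK feedback falls from 0.41 to -0.94.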

How the data were processed

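The data are RNA-seq counts of 6 NPC libraries. The authors deposited raw counts per gene, made with featureCounts 1.6.1 on paired reads with its reverse-strand setting and Ensembl release 92 (GRCm38), per the file headers. Input names in those headers carry STAR and rmdup, a removal of duplicate reads that can lower the counts of highly expressed genes. Tsix, antisense to the abundant Xist, had at most 8 counts in a library, so the strands were kept apart. Of 53801 gene IDs 53620 matched a symbol and 181 did not. Genes with low counts were dropped (filterByExpr by clone, 15492 left). Clone 31 was tested against clone 30 with auxin time as block by edgeR 4.0.16 quasi-likelihood (robust, TMM scaling, R 4.3.3), Benjamini-Hochberg adjusted over all tested genes, threshold 0.05, with 2 residual degrees of freedom. The time comes from the labels and pairs the libraries. A second fit added a term for the clone difference at 48 h. Differences per time are log2 CPM with a prior count of 2. Alternatives were other scalings and filters, DESeq2 1.42.0, limma 3.58.1 (voom), thinned counts, no block, and leaving out libraries. The edgeR fit with the block was run on simulated counts with 200 changed genes, a common dispersion and no effect of auxin time. The 48 h term, DESeq2 and voom were not run on simulated counts.

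Named genes were those called with 1 sign at all times and at least 5 CPM on average in the higher clone (15 largest rises and 15 largest falls), up to 4 called genes by smallest p from each of 45 lists, up to 10 by smallest p for the 48 h term, Spen and Xist. Other listed genes were named after their values were seen. The members and lists were chosen with earlier results of these data known. Totals of 24603816 to 43008978 counts set the precision, and intervals and floors cover counting error only. Some listed genes that enter the counts are not reported here by name.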

Additional observations from a re-analysis of the deposited data

Results flagged for a closer look

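The clone difference at 48 h departed from its mean at 0 and 24 h in these genes by the smallest p of the 48 h term (edgeR, adjusted p under 0.05 in each, 1 library per clone and time). The term was 2.14 on the log2 scale for Dpp6, 1.81 for Itga7 (an integrin), 2.25 for A2m (alpha-2-macroglobulin), 1.79 for Pde3a (a phosphodiesterase) and 1.59 for Acot11 (an acyl-CoA thioesterase). It was 1.95 for Hk2, 1.46 for Gbe1 (glycogen branching enzyme), 1.36 for Col12a1 (a collagen), 1.42 for P4ha1 (prolyl hydroxylase of collagen) and 1.38 for Ak4 (adenylate kinase 4). All 10 terms were positive. In 9 of them the clone 31 library at 48 h was above that at 24 h, while in Hk2 it was not and the clone 30 library at 48 h was the lowest of the 6.

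Some list medians had the opposite sign at 48 h from that at 0 and 24 h, and the turn was not tested. At 48 h the median log2 difference was 0.108 for progenitor markers, 0.196 for astrocyte markers, -0.0154 for pluripotency genes and 0.0281 for integrins and laminins. It was 0.102 for the Notch pathway, 0.0569 for retinoic acid metabolism and 0.160 for glutathione S-transferases.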

How the results depend on the processing

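Against 2503 called genes, 566 were called without auxin time as the replicate block (217 higher in clone 31 and 349 lower), 579 without both 24 h libraries (217 higher, 362 lower) and 4865 without both 48 h libraries (2231 higher, 2634 lower). Without both untreated libraries 782 were called higher. Leaving out 1 library gave from 690 to 4914 calls, 264 to 2313 higher and 423 to 2625 lower; by construction the other library of that time then has no partner. The other scalings, filters and tools called between 2181 and 2938. Genes past the fold at all 3 times numbered 436 higher and 889 lower at 1.5-fold, and 34 and 98 at 4-fold. For the 48 h term, alternatives chosen after seeing the data called 1162 genes with upper-quartile scaling, 2010 with no filter and 283 with DESeq2, against 771, and the other 5 stayed within 1.5 times. The cause of these shifts was not tested. No called named gene changed sign. Leaving out libraries could not turn it, because each called gene had 1 sign at all 3 times. Of the list medians under other settings 566 stayed within 1 SD over times and 106 moved, and of the chromosome medians 179 and 61. In 39 of the list medians, over 9 lists with medians of at most 0.19 in size, the sign turned, as it did in 57 of the chromosome medians. Axon guidance went from 0.00 to -0.05 with total counts, and ERK feedback from -0.15 to 0.10 without the 48 h library of either clone. For named genes, 2483 values kept their side of the threshold, 294 fell short of it and 23 passed it. The counts of called list members were also compared after seeing the data: 107 counts of higher and 157 of lower members stayed within 1.5 times and 37 and 59 did not. Genes under a few counts per library are limited by depth.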
